A study of Mus musculus with 12 samples.

Results

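The proteasome is the protease that takes apart proteins marked with ubiquitin. Its mRNAs were followed here in sub-polysomal and polysomal fractions of 4T1 cells. Genes were taken by name: every symbol that starts with Psma, Psmb, Psmc, Psmd, Psme, Psmf or Psmg followed by a number, without the names that end in -ps (pseudogenes). That gave 50 of the 55376 genes in the count table. Of these, 48 were among the 12224 genes that reached 1 CPM (counts scaled to a common library size) in 3 or more libraries, and the other two, Psma8 and Psmb11, had 0 counts in every library. The name also took Psmc3ip, a meiotic recombination factor that is no part of the proteasome, and Psme2b, a near-identical copy of Psme2. Both are kept in the counts and named apart.

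The 4T1 line is a mouse mammary gland cancer line. Mock cells carried the empty vector stably, and METTL7A1 cells carried a full-length Mettl7a1 cDNA behind a CMV promoter, so that both were transfected lines. Whether each line was 1 clone or a pool is not given in the sources used here. All cells received cycloheximide, which holds ribosomes on the mRNA, at 0.1 mg/ml for 5 min before lysis and a sucrose gradient. Gradient fractions 3 to 7, with free ribosomal subunits and monosomes, made the sub-polysomal pool, and fractions 8 to 11 made the polysomal pool. Each of the 4 groups (mock sub-polysomal, mock polysomal, METTL7A1 sub-polysomal and METTL7A1 polysomal) had 3 libraries, lettered A, B and C in mock cells and D, E and F in METTL7A1 cells, and values are listed in that order. The study describes its polysome fractionation as repeated on biological triplicates, but the sources used here do not tie each library to a culture of its own, so the p-values measure the spread between these libraries, which may be partly technical.

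The proteasome's 20S core is a barrel of alpha and beta rings, and the cutting sites lie on a few beta subunits inside it. The 19S particle caps the barrel: its base carries a ring of ATPases that unfold the substrate and its lid removes the ubiquitin chain. Alternative catalytic subunits replace the usual ones in the immunoproteasome, which is known for cutting peptides for antigen presentation and rises with interferon. Other proteins activate the core in place of the 19S particle, inhibit it, or act as chaperones while the rings are built.

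Library totals ran from 1817520 counts (mock sub-polysomal A) to 6966156 (mock polysomal C), and 3 counts, the floor used here, equal 0.372 to 1.69 CPM. The transfected gene, Mettl7a1, stood at 4 to 24 counts in mock cells (6 libraries) and at 989 to 2436 in METTL7A1 cells (6 libraries). The epithelial genes Krt8, Krt18, Epcam and Cdh1 were present in every library, with a lowest value of 138 CPM by total counts (Epcam). The leukocyte gene Ptprc and the endothelial gene Pecam1 did not exceed 0.311 CPM. Mitochondrial transcripts took 4.37% to 8.49% of the sub-polysomal counts and 0.684% to 2.14% of the polysomal counts, and their part in the differences between pools was not tested.

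The 50 genes together took 0.713% to 0.765% of all counts in the mock sub-polysomal libraries and 1.09% to 1.32% in the mock polysomal ones. In METTL7A1 cells the shares were 0.558% to 0.651% and 1.04% to 1.13%. The polysomal shares lay above the sub-polysomal ones in both lines without overlap. These are shares of raw totals, and the TMM scaling factors used in the tests make the contrast between pools smaller. Those factors ran from 0.806 to 0.977 in sub-polysomal and from 1.11 to 1.23 in polysomal libraries. A share or a CPM value is relative to the other RNA of the same library, so that fewer cells with an mRNA and less mRNA per cell cannot be told apart.

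Levels of different genes are compared as RPKM, the CPM divided by the exon length in kilobases. In mock polysomal RNA the highest means were 624 RPKM for Psma6, an alpha ring subunit, and 585 RPKM for Psmb6, the subunit with caspase-like activity. The lowest were 2.68 RPKM for Psmb9 and 4.25 RPKM for Psme2b. The median over the 4 non-catalytic beta subunits was 349 RPKM, over the 7 tested alpha subunits 209, over the 6 ATPases 138 and over the 8 lid subunits 122. The 3 tested immunoproteasome subunits had a median of 14.8 RPKM against 266 for the 3 constitutive catalytic subunits. The single inhibitor, Psmf1, stood at 11.5 RPKM. The order from alternative to constitutive catalytic subunits was the same in the other 3 groups, with medians of 10.0 against 255 RPKM (mock sub-polysomal), 22.7 against 214 (METTL7A1 sub-polysomal) and 23.0 against 265 (METTL7A1 polysomal).

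The first question was where each mRNA sat in the gradient of the same cells. In mock cells 19 of the 48 tested genes were higher in polysomal than in sub-polysomal RNA and 4 were lower at an adjusted p below 0.05 in edgeR's quasi-likelihood test, while 23.3% of all genes tested were higher and 23.7% lower. In METTL7A1 cells 23 were higher and 5 lower, against 30.0% and 29.3% of all genes. The median log2 difference (polysomal minus sub-polysomal) of the 48 genes was 0.31 in mock and 0.34 in METTL7A1 cells, and that of all genes 0.054 and 0.058. Scaling to Actb, the control gene of the study, left 12 higher and 3 lower calls for mock cells, and for METTL7A1 cells 18 and 9. The stricter rule of the study, an adjusted p below 0.01 with a log2 difference beyond 1.5, called 1 of the 48 in mock cells (Psmg4) against 7.55% of all genes, and 3 in METTL7A1 cells (Psmd1, Psmg4 and Psmb10) against 12.1%. Of the calls at 0.05, 18 were higher and 3 lower in both lines, which share no library in these comparisons, and none was in opposite directions. The same count over all genes was not made, so that this overlap cannot be called particular to the 48. In mock cells 12 of the 19 higher and 3 of the 4 lower calls held in all 15 alternatives, and in METTL7A1 cells 18 of the 23 and 4 of the 5.

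**Figure D1:**
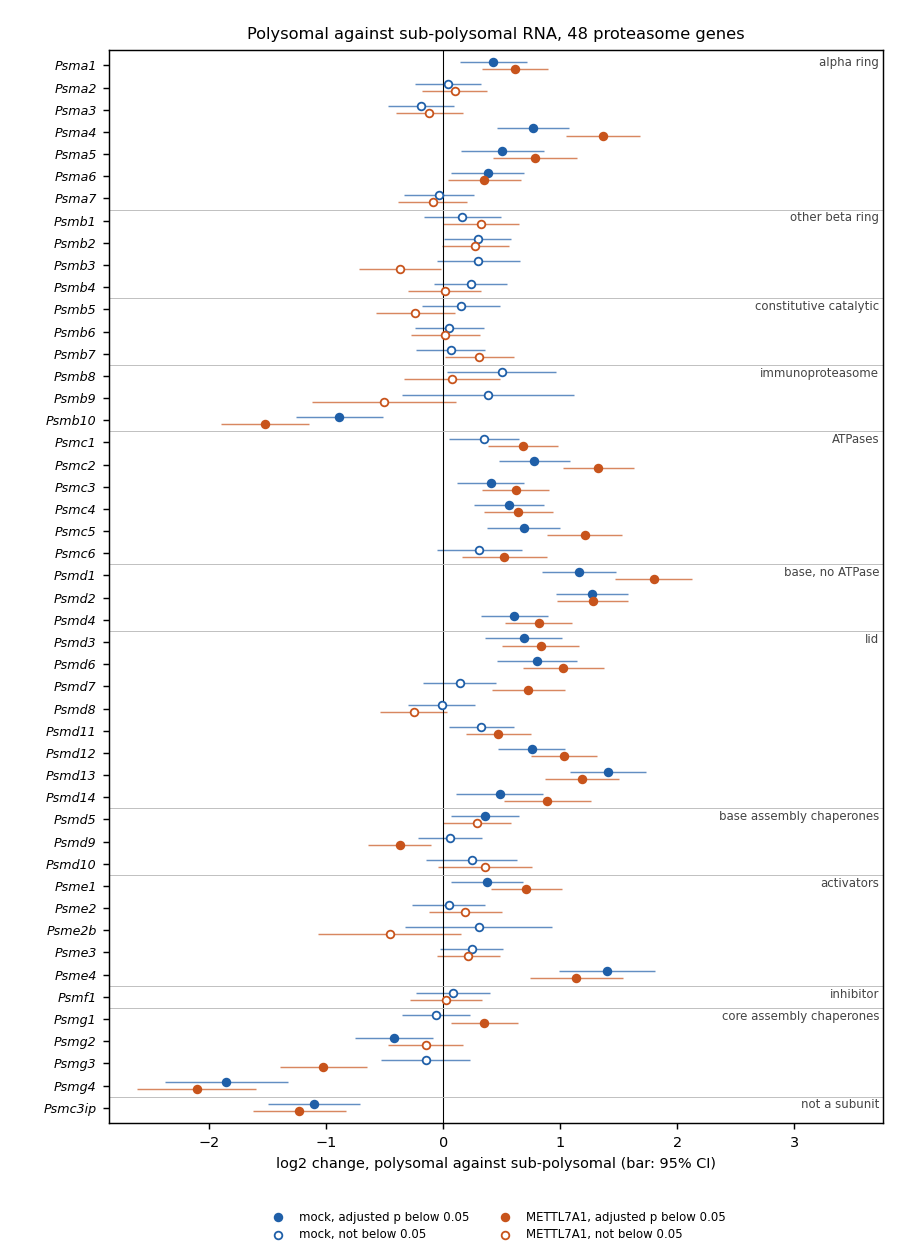
Log2 difference between polysomal and sub-polysomal RNA (horizontal axis) for each of the 48 tested genes, grouped by role, in mock cells (blue) and METTL7A1 cells (orange), with 3 libraries per group; bars are 95% confidence intervals and filled points have an adjusted p below 0.05. The 19S subunits lie mostly right of 0, with 12 of 17 called higher in mock and 16 of 17 in METTL7A1 cells, and Psmg4 lies farthest left at -1.85 and -2.11.

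The 19S particle carried most of the calls. Of its 17 subunits, 12 were higher in polysomal RNA in mock cells and 16 in METTL7A1 cells, none was lower, and the median log2 differences were 0.61 and 0.83. Over all alternative settings the count of higher subunits stayed between 10 and 14 in mock and between 14 and 16 in METTL7A1 cells, with 1 lower subunit at most. The 17 tested subunits of the 20S core had 4 calls higher and 1 lower in each line. Over the settings the higher calls ran from 1 to 5 in mock cells, with 1 after scaling to Actb and with offsets for GC content, and from 2 to 7 in METTL7A1 cells, and the lower calls stayed at 1 in mock and ran from 1 to 4 in METTL7A1 cells. Their median log2 difference was 0.24 in mock cells (0.14 to 0.34 over the settings) and 0.075 in METTL7A1 cells, where it turned to -0.18 with scaling to Actb and to -0.012 with offsets for GC content. The difference between the core and the particle was itself not tested.

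Within the base, the scaffold subunits Psmd1 and Psmd2 and the ubiquitin receptor Psmd4 were all higher in polysomal RNA in both lines. Psmd2 had 141, 143 and 140.4 CPM in the mock sub-polysomal libraries and 417, 291 and 315 CPM in the polysomal ones. In METTL7A1 cells it had 152, 151 and 149.7 CPM and 360.3, 388 and 347 CPM. The pools did not overlap in either line, and every polysomal library lay above every sub-polysomal library. The log2 difference of Psmd2 was 1.27 (SE 0.15, adjusted p = 2.75e-06) in mock and 1.28 (SE 0.15, adjusted p = 8.99e-07) in METTL7A1 cells by edgeR. Psmd1 had 45.1, 44.4 and 51.1 CPM against 125, 98.8 and 92.5 CPM in mock cells and 29.2, 22.3 and 23.7 CPM against 88.4, 91.8 and 79.7 CPM in METTL7A1 cells. Its polysomal libraries were again all above its sub-polysomal ones, by 1.16 (SE 0.15, adjusted p = 8.38e-06) and 1.80 (SE 0.16, adjusted p = 7.11e-08) on the log2 scale in edgeR's test. Psmd4 was higher by 0.61 and 0.81.

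The 6 ATPases of the base (Psmc1 to Psmc6), the motor of the particle, all had positive log2 differences in both lines. Psmc2, Psmc3, Psmc4 and Psmc5 passed the threshold in mock cells and all 6 in METTL7A1 cells. Psmc2 had 162, 139.7 and 175 CPM in mock sub-polysomal and 304, 254 and 260.5 CPM in mock polysomal RNA. In METTL7A1 cells it had 93.5, 117 and 98.03 CPM and 253, 280.1 and 241 CPM. The pools were apart in both lines, with log2 differences of 0.78 (SE 0.14, adjusted p = 0.00023) and 1.33 (SE 0.15, adjusted p = 5.75e-07) in edgeR's test. Psmc5 was higher by 0.69 and 1.21 and Psmc4 by 0.56 and 0.64. Psmc3 was higher by 0.40 and 0.62. Psmc1 and Psmc6 had 0.35 and 0.31 in mock cells, short of the threshold, and rose by 0.68 and 0.52 in METTL7A1 cells. The mock call of Psmc3 was lost without sub-polysomal A or polysomal A, and the METTL7A1 call of Psmc6 without sub-polysomal D or E. Both calls were also lost with scaling to Actb.

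Of the 8 lid subunits, Psmd3, Psmd6, Psmd12, Psmd13 and Psmd14 were higher in polysomal RNA in mock cells, and Psmd7 and Psmd11 joined them in METTL7A1 cells. Psmd13, a structural subunit of the lid, had 82.4, 75.5 and 77.0 CPM in the mock sub-polysomal libraries and 244, 169 and 209.6 CPM in the polysomal ones. In METTL7A1 cells the values were 110.4, 95.03 and 86.6 CPM and 216, 246 and 201 CPM. No polysomal library fell into the sub-polysomal range, and the log2 differences were 1.41 (SE 0.16, adjusted p = 1.69e-06) and 1.19 (SE 0.15, adjusted p = 3.07e-06) by edgeR. Psmd14, the deubiquitinase of the lid, was higher by 0.48 and 0.89, and its partner Psmd7 had 0.14 (SE 0.15) in mock cells and rose by 0.73 in METTL7A1 cells. Psmd6 rose by 0.80 and 1.02, Psmd12 by 0.75 and 1.03 and Psmd3 by 0.69 and 0.83. Psmd11 had 0.33 in mock cells (adjusted p = 0.0503, edgeR) and rose by 0.47 in METTL7A1 cells. Psmd8 alone in the lid passed in neither line, with log2 differences of -0.01 (SE 0.14) and -0.25 (SE 0.14). The mock call of Psmd14 was lost without sub-polysomal B or C or polysomal A. With every library kept, it was also lost with scaling to Actb and with offsets for GC content. The METTL7A1 call of Psmd11 was lost under the same settings.

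In the alpha ring, the outer ring that gates entry to the core, Psma1, Psma4, Psma5 and Psma6 were higher in polysomal RNA in both lines. Psma4 had 112, 81.5 and 104 CPM in mock sub-polysomal and 192, 151 and 162 CPM in mock polysomal RNA. In METTL7A1 cells it had 60.4, 64.0 and 51.2 CPM and 156, 157 and 138 CPM. The pools were apart in both lines, most widely in METTL7A1 cells, and the log2 differences were 0.77 (SE 0.15, adjusted p = 0.000368) and 1.36 (SE 0.15, adjusted p = 6.72e-07) by edgeR. Psma5 was higher by 0.50 and 0.79, Psma1 by 0.43 and 0.61 and Psma6 by 0.38 and 0.35. In mock cells the call of Psma1 was lost without sub-polysomal B, that of Psma5 without sub-polysomal A or C or polysomal A or C, and that of Psma6 without sub-polysomal B or C or polysomal A or C. In METTL7A1 cells the call of Psma6 was lost without any single library except sub-polysomal E. Under scaling to Actb, and likewise with offsets for GC content, only Psma4 stayed called higher in mock cells. In METTL7A1 cells only Psma4 and Psma5 stayed called higher under either of these settings. Psma2, Psma3 and Psma7 passed in neither line, with log2 differences between -0.19 and 0.10.

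None of the 4 non-catalytic beta subunits (Psmb1, Psmb2, Psmb3 and Psmb4) passed in either line in edgeR's test, with log2 differences from -0.37 (Psmb3, METTL7A1) to 0.32 (Psmb1, METTL7A1). Of these 8 tests, 2 had an unadjusted p below 0.05. Under the alternatives, DESeq2 and limma-voom among them, 0 of the 4 passed in mock cells, and in METTL7A1 cells at most 2 were called higher and at most 1 lower. The 3 constitutive catalytic subunits, Psmb5 (chymotrypsin-like), Psmb6 (caspase-like) and Psmb7 (trypsin-like), did not pass either, with log2 differences of 0.15 (SE 0.16), 0.05 (SE 0.14) and 0.06 (SE 0.14) in mock and -0.24 (SE 0.16), 0.02 (SE 0.14) and 0.31 (SE 0.14) in METTL7A1 cells. Of those 6 tests, 1 had an unadjusted p below 0.05.

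Psmb10, the immunoproteasome subunit that takes the place of Psmb7, was the core subunit that lay lower in polysomes. It had 50.2, 74.0 and 69.5 CPM in mock sub-polysomal and 28.4, 36.4 and 41.0 CPM in mock polysomal RNA. The METTL7A1 libraries had 91.5, 88.3 and 79.9 CPM and 23.97, 31.1 and 35.4 CPM. Polysomal values were below all sub-polysomal values in both lines, and the log2 difference was -0.89 (SE 0.18, adjusted p = 0.000494) in mock and -1.52 (SE 0.18, adjusted p = 1.09e-06) in METTL7A1 cells by edgeR. Psmb8 and Psmb9, the alternatives to Psmb5 and Psmb6, had log2 differences of 0.50 (SE 0.22) and 0.38 (SE 0.35) in mock and 0.07 (SE 0.20) and -0.50 (SE 0.29) in METTL7A1 cells, and neither passed.

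Among the chaperones that build the alpha ring, Psmg4 had the most negative log2 difference of the 48 genes in both lines. It had 46.8, 70.8 and 47.2 CPM in mock sub-polysomal and 8.06, 17.3 and 20.2 CPM in mock polysomal RNA. In METTL7A1 cells it had 84.9, 84.9 and 83.2 CPM and 16.6, 17.5 and 24.9 CPM. All 6 polysomal libraries were below all 6 sub-polysomal ones, with log2 differences of -1.85 (SE 0.25, adjusted p = 1.26e-05) and -2.11 (SE 0.24, adjusted p = 9.78e-07) by edgeR. Its partner Psmg3 had -0.15 (SE 0.18) in mock cells, and fell in METTL7A1 cells, with a log2 difference of -1.02 (SE 0.18, adjusted p = 8.3e-05) by edgeR. Psmg2 fell in mock cells (-0.42) and had -0.15 in METTL7A1 cells. Its partner Psmg1 had -0.06 in mock cells and rose in METTL7A1 cells (0.35). Of the chaperones of the base, Psmd5 rose in mock cells (0.35, and 0.29 in METTL7A1 cells), Psmd9 fell in METTL7A1 cells (-0.37, and 0.06 in mock cells), and Psmd10 passed in neither (0.24 and 0.35). The smaller of these calls rested on single libraries. That of Psmg2 was lost without mock sub-polysomal B or C or polysomal A or B, that of Psmd5 without mock sub-polysomal A or C or polysomal A or C, that of Psmg1 without METTL7A1 sub-polysomal D or F or polysomal D or E, and that of Psmd9 without METTL7A1 sub-polysomal E or polysomal D. With every library kept, the mock call of Psmd5 was also lost with RLE factors, DESeq2, scaling to Actb and offsets for GC content.

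Psme4 is a large activator that binds the end of the core. It had 19.2, 19.5 and 29.6 CPM in mock sub-polysomal and 79.2, 55.5 and 51.5 CPM in mock polysomal RNA. In METTL7A1 cells it had 23.2, 30.5 and 26.8 CPM and 54.2, 61.4 and 62.2 CPM. The pools did not overlap, and the log2 differences were 1.40 (SE 0.20, adjusted p = 1.69e-05) and 1.14 (SE 0.19, adjusted p = 5.44e-05) by edgeR. Psme1 and Psme2 together form another activator, which is known to rise with interferon. Psme1 had 75.1, 77.1 and 84.9 CPM against 105, 89.1 and 114 CPM in mock cells and 73.9, 66.7 and 54.5 CPM against 104, 118 and 96.9 CPM in METTL7A1 cells, and rose by 0.37 and 0.71 on the log2 scale. Its mock call was lost without any single library except polysomal B, and also with RLE factors, DESeq2 and scaling to Actb. Psme2 had 182, 164 and 162 CPM against 171, 156 and 197 CPM in mock cells and 176, 154 and 119.8 CPM against 182, 164 and 166 CPM in METTL7A1 cells. Its pools overlapped in both lines, and its log2 differences of 0.05 (SE 0.15) and 0.19 (SE 0.15) did not pass. How reads shared with Psme2b were counted is not given in the sources used here, so that the split between Psme2 and Psme2b, which had 2.18 to 3.97 CPM in the 12 libraries, is uncertain. Psme3, a nuclear activator, and the inhibitor Psmf1 passed in neither line, with log2 differences from 0.02 to 0.24.

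Psmc3ip, the gene that shares only its name with the ATPases, had 59.8, 95.7 and 89.8 CPM in mock sub-polysomal and 28.8, 40.7 and 45.9 CPM in mock polysomal RNA. In METTL7A1 cells it had 61.3, 61.5 and 76.0 CPM and 25.6, 28.4 and 31.0 CPM. It lay lower in polysomes in both lines without overlap, by log2 differences of -1.10 and -1.23. Without it and Psme2b, 46 genes remained, of which mock cells had 19 higher and 3 lower calls, and METTL7A1 cells 23 and 4.

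Position in the gradient moved with the length of the coding sequence, which the choice of genes did not use. Across the 48 genes Spearman's rho between coding length and the log2 difference between pools was 0.608 in mock and 0.691 in METTL7A1 cells, and 0.559 and 0.657 without Psme4 and Psmd1, the 2 genes farthest from the median length. Across 10837 tested genes with a matched transcript it was 0.547 and 0.538. These are descriptions across genes, which share their libraries and are not independent replicates. The 20S core subunits had coding sequences of 606 to 834 nt and the 19S subunits of 933 to 2862 nt, so that membership of the core or the particle and coding length cannot be told apart here. Psme4 had the longest coding sequence of the 48 genes at 5532 nt, and Psmg3 and Psmg4 the shortest at 369 and 372 nt.

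Within classes of coding length most proteasome mRNAs lay toward the polysomes. Under 900 nt, 26 of 29 had a log2 difference above the median of all genes of that length in mock cells and 25 of 29 in METTL7A1 cells, with medians of 0.15 and 0.022 against -0.48 and -0.65 for all genes. From 900 to 1500 nt it was 13 of 14 in both lines, with medians of 0.52 and 0.77 against 0.086 and 0.11. At 1500 nt or more it was 4 of 5 in both, with medians of 1.16 and 1.14 against 0.40 and 0.50. The exception among these 5 was Psmd5 in both lines. No test was run on these counts, since the genes were chosen as a group.

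**Figure D2:**
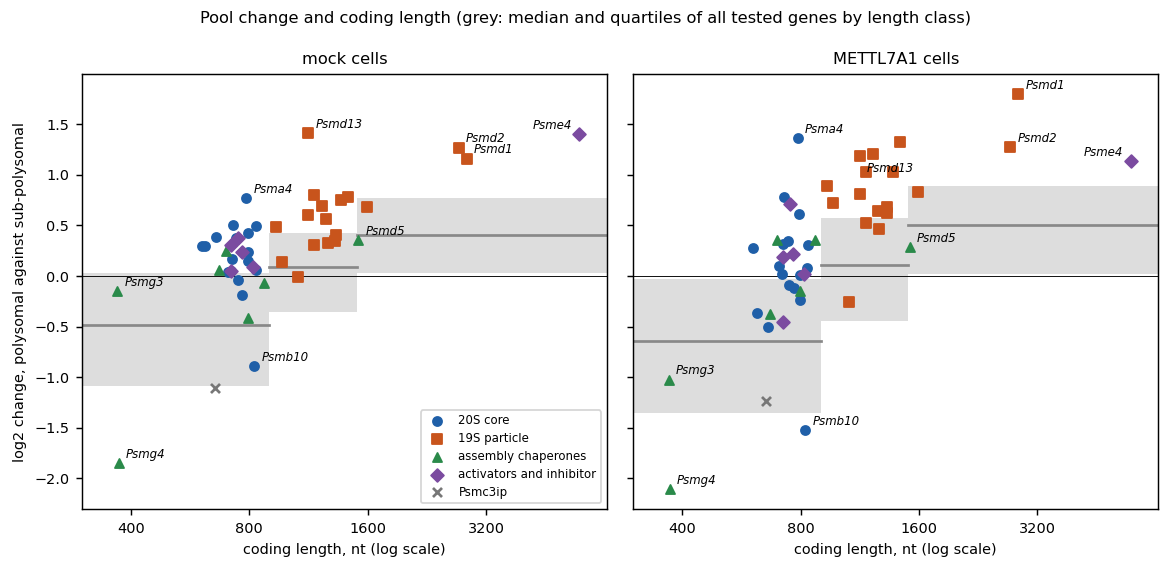
Log2 difference between polysomal and sub-polysomal RNA (vertical axis) against coding length in nt (horizontal log axis) for the 48 genes in mock cells (left) and METTL7A1 cells (right), with a marker for each class of subunit; grey lines and boxes are the median and quartiles of all tested genes in 3 classes of length. Most points lie above the grey lines, 43 of 48 in mock and 42 of 48 in METTL7A1 cells, while Psmg4, Psmb10 and Psmc3ip lie below them.

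The mRNAs also had short untranslated regions. In GENCODE annotation of the mouse genome GRCm38 the median coding length of the 48 genes was 805.5 nt against 1377 nt for all tested genes, the 5′ UTR 112 against 165 nt and the 3′ UTR 200.5 against 955 nt. An ATG upstream of the annotated start stood in the 5′ UTR of 18 of the 48 (37.5%) against 48.9% of all tested genes. A purine at the third base before the ATG was found in 44 (91.7%) against 85.3%, and a G right after the ATG in 27 (56.2%) against 53.9%.

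The start sites of the 6 catalytic genes are shown because the constitutive and the alternative subunits of each pair differed in the leader before them. Each line gives the 10 bases before the start codon, the start codon in capitals and the base after it, read 5′ to 3′ on the coding strand from GRCm38, with the position of the A of the ATG.
Psmb5 (chromosome 14, position 54617991, minus strand): cttgctaaacATGg
Psmb8 (chromosome 17, position 34198399, plus strand): ccaagtggtcATGg
Psmb6 (chromosome 11, position 70525397, plus strand): gcagaggaagATGg
Psmb9 (chromosome 17, position 34187309, minus strand): ctctgctgagATGc
Psmb7 (chromosome 2, position 38643902, minus strand): tcttggcaagATGg
Psmb10 (chromosome 8, position 105938010, minus strand): ttcctgcgagATGc
All 6 had a purine at the third base before the ATG. A G followed the ATG in Psmb5, Psmb6, Psmb7 and Psmb8, and a C in Psmb9 and Psmb10. The 5′ UTRs of Psmb5, Psmb6 and Psmb7 had 31, 11 and 185 nt with 0, 0 and 1 upstream ATG. Those of Psmb8, Psmb9 and Psmb10 had 609, 455 and 434 nt with 6, 4 and 8 upstream ATGs. Of the 6 genes only Psmb10 was called lower in polysomes, and Psmb8 and Psmb9 passed in neither direction. Whether upstream ATGs had a part in this was not tested. Psmb8 (34197790 to 34201454) and Psmb9 (34181987 to 34187764) both lie on chromosome 17, in opposite orientation.

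For comparison, the start sites of the genes with the largest differences between the pools in mock cells are given in the same form, first the 4 highest in polysomal RNA and then the 2 lowest, Psmg4 and Psmc3ip.
Psmd13 (chromosome 7, position 140882472, plus strand): ctctgcaatcATGa
Psme4 (chromosome 11, position 30771983, plus strand): ccccgggctaATGg
Psmd2 (chromosome 16, position 20651717, plus strand): agtggcggagATGg
Psmd1 (chromosome 1, position 86064790, plus strand): gggcgcagccATGa
Psmg4 (chromosome 13, position 34163076, plus strand): ggctggcgggATGg
Psmc3ip (chromosome 11, position 101095376, minus strand): gggaaaggccATGa
Psme4 lacked a purine at the third base before the ATG, and the other five had one. Psmd13 had 4 upstream ATGs in a 5′ UTR of 504 nt and had the largest difference toward polysomal RNA in mock cells. The other five had 0, Psmg4 in a 5′ UTR of 112 nt and Psmc3ip in one of 60 nt.

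The next question was how METTL7A1 cells differed from mock cells within each pool. In polysomal RNA few proteasome genes differed: 2 of the 48 were higher in METTL7A1 cells (Psmb8 and Psmg2) and 3 lower (Psma6, Psmb5 and Psmb6) at an adjusted p below 0.05 in edgeR's test, against 9.69% and 8.28% of all genes. The stricter rule called 0 of the 48, by edgeR, DESeq2 and limma-voom alike, against 2.13% of all genes. In edgeR's test 10 of the 48 had an unadjusted p below 0.05, beside 3819 of all 12224 genes. The median log2 difference (METTL7A1 minus mock) was -0.0097 against -0.014 for all genes. With scaling to Actb, which moved the median of all genes to 0.082, the calls were 2 higher and 1 lower and the median of the 48 was 0.092. None of the 17 subunits of the 19S particle passed in this comparison, under edgeR or any alternative, and their log2 differences lay between -0.29 and 0.19.

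Psma6, an alpha ring subunit, had 782, 649.7 and 718 CPM in mock polysomal and 434, 443 and 425 CPM in METTL7A1 polysomal RNA. In sub-polysomal RNA it had 591, 489 and 573 CPM in mock and 309, 393 and 318 CPM in METTL7A1 cells. Every METTL7A1 library lay below every mock library of the same pool. The log2 differences were -0.72 (SE 0.15, adjusted p = 0.00214) in polysomal and -0.69 (SE 0.15, adjusted p = 0.00178) in sub-polysomal RNA by edgeR. The polysomal call held in all 14 alternatives, and the sub-polysomal call was lost only with scaling to Actb.

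**Figure D3:**
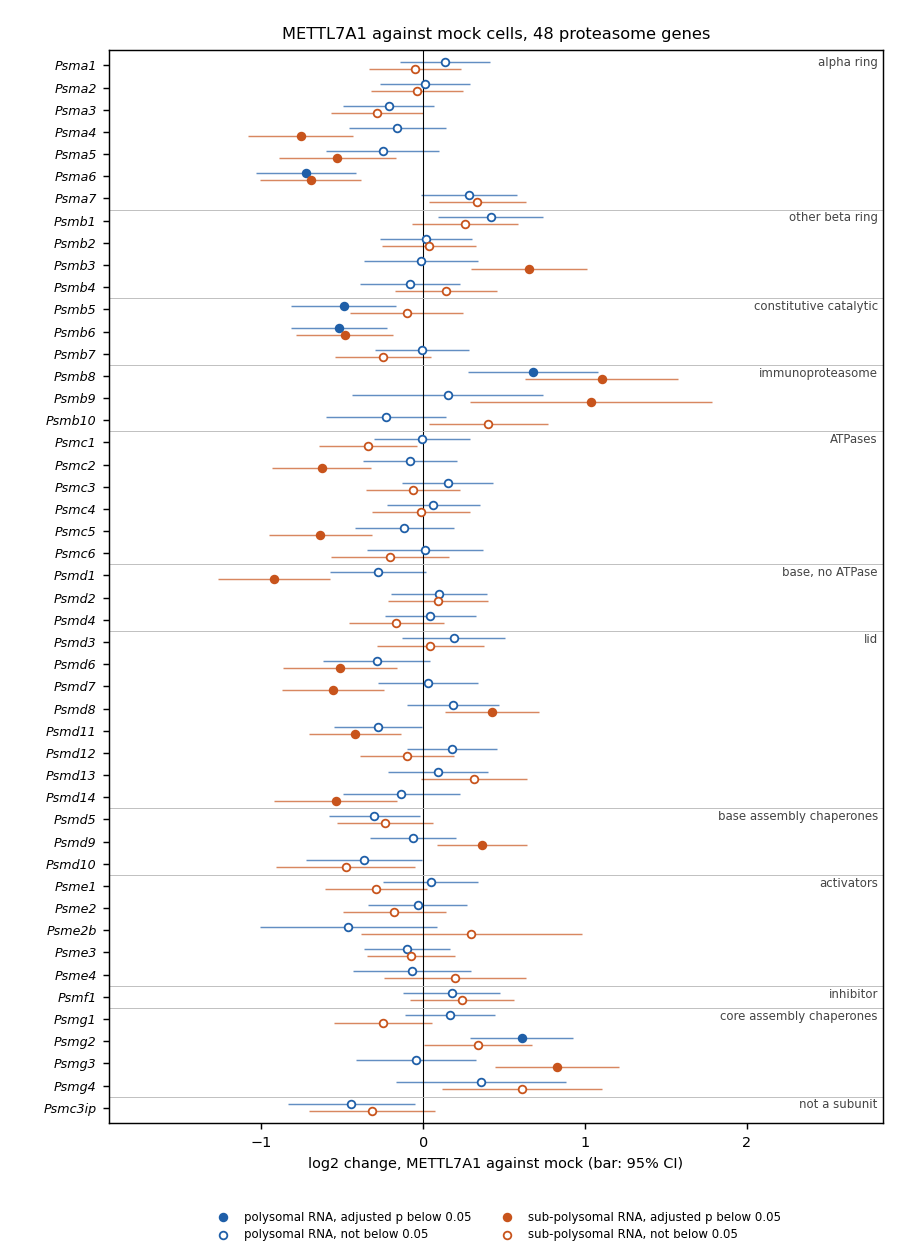
Log2 difference between METTL7A1 and mock cells (horizontal axis) for the 48 tested genes by role, in polysomal RNA (blue) and sub-polysomal RNA (orange), with 3 libraries per group; bars are 95% confidence intervals and filled points have an adjusted p below 0.05. Psmb8 is right of 0 in both pools (0.68 and 1.10) and Psma6 left of 0 in both (-0.72 and -0.69), while the 19S subunits are spread around 0 in polysomal RNA.

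Of the constitutive catalytic subunits, Psmb6 had 480.1, 445 and 475 CPM in mock polysomal and 329, 326 and 321 CPM in METTL7A1 polysomal RNA, and 381, 499 and 468 CPM and 320.3, 350.1 and 294 CPM in the sub-polysomal pools. METTL7A1 libraries were below mock libraries in both pools, by log2 differences of -0.52 (SE 0.14, adjusted p = 0.0147) and -0.49 (SE 0.14, adjusted p = 0.0142) in edgeR's test. Psmb5 had 59.1, 46.5 and 66.9 CPM against 45.2, 40.8 and 36.6 CPM in polysomal RNA and 46.3, 60.4 and 48.2 CPM against 52.7, 48.1 and 44.2 CPM in sub-polysomal RNA. It was lower in METTL7A1 polysomes (log2 difference -0.49, SE 0.16, adjusted p = 0.034, edgeR) and had -0.10 (SE 0.17) in the sub-polysomal pool, where the libraries overlapped. Psmb7 had 335, 282 and 309 CPM against 307, 298 and 317 CPM in polysomal RNA and 341, 258 and 288 CPM against 240.4, 268 and 236 CPM in sub-polysomal RNA, and passed in neither, with log2 differences of -0.01 (SE 0.14) and -0.25 (SE 0.14). The polysomal calls were sensitive to single libraries: Psmb6 missed the threshold without METTL7A1 D, E or F, and Psmb5 without mock A or C or METTL7A1 E or F, and both missed it with scaling to Actb. The sub-polysomal call of Psmb6 was lost without mock B or METTL7A1 F and with scaling to Actb.

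For Psmb8, the alternative to Psmb5, both pools of METTL7A1 cells lay above those of mock cells. It had 14.1, 13.2 and 21.7 CPM in mock sub-polysomal and 46.8, 38.46 and 25.6 CPM in METTL7A1 sub-polysomal RNA. In the polysomal pools it had 28.4, 20.1 and 23.7 CPM and 38.8, 37.6 and 39.2 CPM. METTL7A1 libraries were above mock libraries in both pools, by log2 differences of 1.10 (SE 0.23, adjusted p = 0.00121) and 0.68 (SE 0.19, adjusted p = 0.0188) in edgeR's test. The sub-polysomal call held in all 14 alternatives, and the polysomal one was lost without mock B or METTL7A1 D, E or F.

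Psmb9, the alternative to Psmb6, was a low gene, with 6, 13 and 8 counts in the mock sub-polysomal libraries, 19, 26 and 19 in the METTL7A1 sub-polysomal, 27, 28 and 27 in the mock polysomal and 24, 38 and 23 in the METTL7A1 polysomal ones. In CPM these were 3.39, 4.09 and 1.58, then 6.30, 6.45 and 4.54, then 3.69, 3.85 and 3.35, and last 3.29, 4.88 and 3.87. The sub-polysomal groups did not overlap (log2 difference 1.04, SE 0.36, adjusted p = 0.0332, edgeR), but the call was lost without mock C, which held the lowest value (log2 difference 0.58, adjusted p = 0.265), without METTL7A1 D or E, and under DESeq2. The polysomal groups overlapped, with a log2 difference of 0.15 (SE 0.28). Psmb10 had 0.40 (SE 0.18) in sub-polysomal and -0.23 (SE 0.18) in polysomal RNA and passed in neither.

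**Figure D4:**
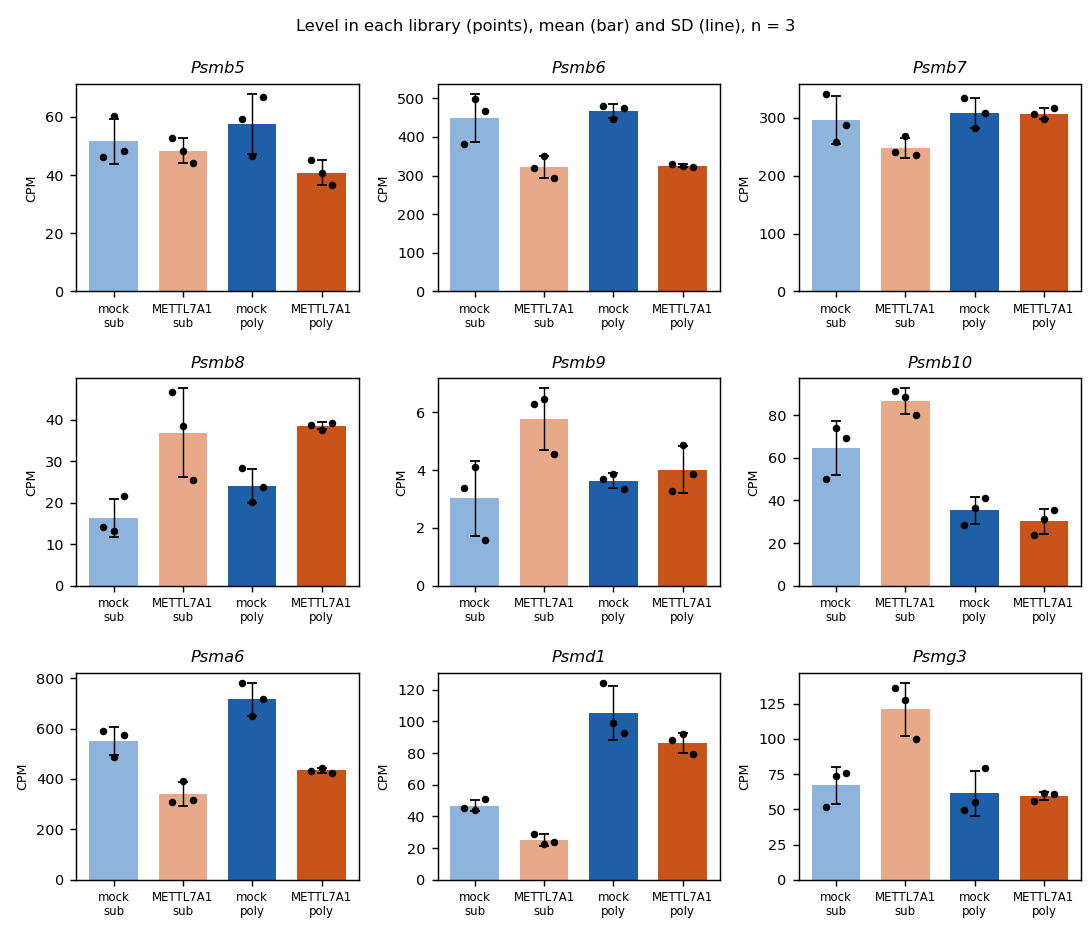
CPM (vertical axes, each starting at 0) of the catalytic subunits Psmb5 to Psmb10 and of Psma6, Psmd1 and Psmg3 in the 4 groups; points are the 3 libraries of a group, bars their means and lines 1 SD. Psmb8 runs from 13.2 to 28.4 CPM in the mock libraries and from 25.6 to 46.8 in the METTL7A1 libraries, and Psmb10 is lower in the polysomal groups of both lines.

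The balance of alternative to constitutive subunit was described as the log2 ratio of their RPKM values in each library, a measure chosen after the values had been seen. For Psmb8 to Psmb5 the mean ratio was -1.29 in METTL7A1 and -2.54 in mock sub-polysomal RNA, a difference of 1.26, and -0.94 and -2.11 in polysomal RNA, a difference of 1.18. For Psmb9 to Psmb6 the differences were 1.504 and 0.65. For Psmb10 to Psmb7 they were 0.69 and -0.23. In 5 of these 6 comparisons the 3 METTL7A1 libraries lay above the 3 mock libraries, and in the sixth, Psmb10 to Psmb7 in polysomal RNA, the groups overlapped. The ratios reuse the values of the single genes above. The same count was not made for other pairs of genes, so that it cannot be called particular to these. A two-sided exact permutation test gave p = 0.1 in each of the 5, the smallest p that 3 against 3 libraries allow, and 0.5 in the other (0.12 and 0.5 after Benjamini-Hochberg adjustment over the 6), so that no comparison could pass 0.05. The activator genes Psme1 and Psme2 had log2 differences (METTL7A1 minus mock) of -0.29 (SE 0.15) and -0.18 (SE 0.15) in sub-polysomal and 0.05 (SE 0.14) and -0.03 (SE 0.15) in polysomal RNA, and passed in neither. A part of interferon in any of these differences was not tested.

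In sub-polysomal RNA 6 of the 48 genes were higher in METTL7A1 cells and 11 lower, against 16.8% and 14.5% of all genes. The stricter rule called 0 of the 48 by edgeR, DESeq2 and limma-voom, against 2.76% of all genes. In edgeR's test 23 of the 48 had an unadjusted p below 0.05, beside 5166 of all 12224 genes. The median log2 difference was -0.086 against -0.0015 for all genes. With scaling to Actb the split turned to 13 higher and 2 lower. The median was then 0.18 for the 48 genes and 0.26 for all genes. That scaling moves all genes nearly alike, so it cannot check the place of the 48 below the median of all genes. Actb itself had a log2 difference of -0.26 in this comparison. The 5 calls that held in all 14 alternatives were Psmb3, Psmb8 and Psmg3 (higher) and Psma4 and Psmd1 (lower).

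The 19S particle had 7 of the 11 lower calls (Psmc2, Psmc5, Psmd1, Psmd6, Psmd7, Psmd11 and Psmd14) and 1 higher (Psmd8), with a median log2 difference of -0.20 over its 17 subunits. With scaling to Actb it had 1 lower and 2 higher and a median of 0.036, beside 0.26 for all genes. Psmd1 had 45.1, 44.4 and 51.1 CPM in mock and 29.2, 22.3 and 23.7 CPM in METTL7A1 sub-polysomal RNA without overlap, a log2 difference of -0.92 (SE 0.17, adjusted p = 0.000416) by edgeR. In polysomal RNA it had 125, 98.8 and 92.5 CPM and 88.4, 91.8 and 79.7 CPM, where the METTL7A1 values were also the lower ones but did not pass (log2 difference -0.28, SE 0.14, adjusted p = 0.184, edgeR). The other lower subunits had log2 differences of -0.64 (Psmc5), -0.63 (Psmc2), -0.56 (Psmd7), -0.54 (Psmd14), -0.51 (Psmd6) and -0.42 (Psmd11), and Psmd8 was higher by 0.42. Among these the calls of Psmc2, Psmc5 and Psmd7 were lost with scaling to Actb alone. Those of Psmd6 (mock A, METTL7A1 D or F), Psmd11 (mock A or B, METTL7A1 D or E), Psmd14 (mock A, METTL7A1 D, E or F) and Psmd8 (mock A, METTL7A1 D or E) were lost without any 1 of the libraries named. The calls of Psmd6, Psmd11 and Psmd14 were also lost with scaling to Actb, and that of Psmd8 with offsets for GC content. Of Psmd6, Psmd11 and Psmd14, not all stayed called with offsets for GC content.

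In the core, Psma4 had 112, 81.5 and 104 CPM in mock and 60.4, 64.0 and 51.2 CPM in METTL7A1 sub-polysomal RNA, without overlap (log2 difference -0.76, SE 0.15, adjusted p = 0.00124, edgeR), and 192, 151 and 162 CPM against 156, 157 and 138 CPM in polysomal RNA (log2 difference -0.16, SE 0.14). Psma5 was also lower (-0.53), a call lost without mock B or C or METTL7A1 F. It was also lost with scaling to Actb and with offsets for GC content. Psmb3, a non-catalytic beta subunit, was higher, with a log2 difference of 0.66 (SE 0.17, adjusted p = 0.0069) by edgeR, from 202, 296 and 271 CPM in mock to 468, 429.5 and 319 CPM in METTL7A1 sub-polysomal RNA. No METTL7A1 value of Psmb3 fell into the mock range in that pool. In polysomal RNA its log2 difference was -0.01 (SE 0.17).

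Among the assembly factors, Psmg3 had 51.9, 73.6 and 75.8 CPM in mock and 136, 127 and 99.7 CPM in METTL7A1 sub-polysomal RNA, a log2 difference of 0.83 (SE 0.18, adjusted p = 0.00223) by edgeR. In polysomal RNA it had 49.4, 55.3 and 79.0 CPM and 55.9, 61.6 and 60.6 CPM (log2 difference -0.05, SE 0.18). The groups were apart in the sub-polysomal pool and overlapped in the polysomal one. Psmg2 had 35.1, 40.8 and 47.9 CPM in mock and 71.1, 59.6 and 58.1 CPM in METTL7A1 polysomal RNA without overlap (log2 difference 0.61, SE 0.15, adjusted p = 0.0091, edgeR), a call that was lost without METTL7A1 D, and 52.5, 54.1 and 58.4 CPM against 82.6, 67.2 and 60.3 CPM in sub-polysomal RNA (log2 difference 0.34, SE 0.16). Psmd9 was higher in METTL7A1 sub-polysomal RNA (0.37), a call lost without mock A or C or METTL7A1 D or E, and with offsets for GC content.

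GC content moved with the comparison of the sub-polysomal pools. Spearman's rho between transcript GC and the log2 difference (METTL7A1 minus mock) was 0.439 over the 48 genes and 0.442 over 10837 genes, as a description across genes that share their libraries. With offsets that level the GC trend within each library, chosen after seeing the data, the calls were 7 higher and 11 lower. The genes called were not all the same: Psma5, Psmd8 and Psmd9 were among those no longer called. The lower calls went from 3 to 2 in the alpha ring and from 7 to 6 in the 19S particle. In the base without ATPase they went from 1 to 2, so that the equal total hides changes among the lower calls as well. The median of the 20S core went from -0.041 to 0.11. Coding length went the other way, with rho -0.283 over the 48 genes and -0.144 over all genes.

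The last question was whether the difference between pools itself differed between the lines. This shift is the log2 difference polysomal minus sub-polysomal in METTL7A1 cells minus that in mock cells, so that it uses the libraries of both comparisons above. edgeR's test called 0 of the 48 genes in either direction and by either rule, and 0% of all 12224 genes (percent called 0, 0 and 0 for the stricter rule, higher and lower), while 10 of the 48 and 1911 of all genes had an unadjusted p below 0.05. limma-voom also called 0 of the 48, and DESeq2 called 2 (Psmd7 higher and Psmg3 lower) with 366 genes in all. The median shift of the 48 genes was 0.075 against -0.0079 for all genes, and it turned to -0.085 with scaling to Actb, where the median of all genes was -0.17, and to -0.052 with GC offsets.

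The 3 genes with the smallest p were Psmg3, Psmd1 and Psma4. Psmg3 had a shift of -0.87 (SE 0.25, adjusted p = 0.133) by edgeR with a 95% interval of -1.41 to -0.34. Psmd1 and Psma4 had 0.64 (SE 0.22, adjusted p = 0.169) and 0.60 (SE 0.21, adjusted p = 0.185). In their CPM values above, the lines stood farther apart in the sub-polysomal than in the polysomal pool for each of the 3. Without mock polysomal A, edgeR called Psmg3 lower (adjusted p = 0.0389) and Psmd1 higher among 403 genes in all. The 17 subunits of the 19S particle had a median shift of 0.21, with 0.088 to 0.37 over the settings, the 17 of the core -0.028, and the 3 immunoproteasome subunits -0.63. Those medians carry no test. Spearman's rho between coding length and the shift was 0.437 over the 48 genes and 0.188 over all genes, and between GC and the shift -0.424 and -0.482.

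Other genes of the ubiquitin-proteasome system were taken from a list of partners of the 26S proteasome, ubiquitin genes and activating enzymes, shuttle and unfolding factors, and regulators of proteasome genes. The count table held 31 of them, and 30 were tested. Polysomal RNA of mock cells had 15 of them higher and 4 lower, beside 23.3% and 23.7% of all tested genes, and that of METTL7A1 cells 14 and 6, beside 30.0% and 29.3%. Over the alternative settings these counts ran from 11 to 16 higher and 1 to 5 lower in mock cells and from 10 to 16 higher and 6 to 8 lower in METTL7A1 cells. The 4 with the largest differences in mock cells were Sem1 (-2.38), which encodes a very small subunit of the lid, the unfoldase Vcp (1.56), the protease Ddi2 (1.32) and the ubiquitin-activating enzyme Uba1 (1.23). In METTL7A1 cells they were Sem1 (-2.49), Vcp (1.68), the shuttle factor Ubqln1 (1.59) and Ddi2 (1.47). Sem1 is part of the lid but was not taken by name, and it lay on the other side of 0 from every 19S subunit called between the pools.

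Between the lines, 2 of the 30 were higher in METTL7A1 polysomal RNA, Txnl1 (0.66), a partner of the particle, and Akirin2 (0.62), which helps to bring proteasomes into the nucleus. Ngly1 (-0.71) and Pomp (-0.52), the maturation factor of the core, were lower. Of all tested genes 9.69% were called higher and 8.28% lower there, and over the settings 2 to 5 of the list were higher and 0 to 3 lower. In sub-polysomal RNA 7 were higher and 2 lower, beside 16.8% and 14.5% of all tested genes and with 3 to 11 higher and 2 to 3 lower over the settings, with Ngly1 (-1.09), Ubqln1 (-1.02) and Akirin2 (0.75) the largest differences. Ngly1 encodes the enzyme that processes Nfe2l1, the main activator of proteasome genes. The shift of none of the 30 passed in edgeR's test, and 3 had an unadjusted p below 0.05.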

How the data were processed

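RNA from pooled gradient fractions of 12 libraries was sequenced by the authors after a stranded total RNA preparation with ribosomal RNA removal. Per the study's methods and the submitters' processing notes, the authors trimmed reads, aligned them with STAR 2.5.3a to mm10 (GRCm38) and counted them per Ensembl gene with featureCounts. The deposited values are raw counts. The strand setting and the treatment of multi-mapping reads are not given in the sources used here. No column lacked a sample, and 0 of 66 pairs of libraries held identical values.

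Counts were tested with edgeR 4.0.16 (quasi-likelihood, TMM factors, R 4.3.3), with 1 mean for each of the 4 groups over all 12 libraries, after a filter of 1 CPM or more in 3 or more libraries, and p-values were adjusted by Benjamini-Hochberg over all genes tested. CPM and RPKM use TMM factors and the exon lengths of the count table. DESeq2 1.42.0, limma-voom (limma 3.58.1), RLE factors, scaling to Actb, 2 other filters, fits of only the groups compared, a replicate block and fits without each library were the alternatives, and GC offsets were added after seeing the data. The procedure was tested on simulated data. The members, gene lists and alternatives were chosen with earlier results of these data known. Every library's value was printed for the catalytic and alternative subunits, Psme1, Psme2 and up to 3 largest rises and falls per comparison, and at most 4 listed pathway genes were named per comparison, of which 1 is not reported here. The design foresaw protein length, and coding lengths of GENCODE M21 principal transcripts were used in its place.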

Additional observations from a re-analysis of the deposited data

How the results depend on the processing

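Scaling each library to its Actb count, which moved the median of all genes to -0.023 (pools, mock), -0.18 (pools, METTL7A1), 0.082 (lines, polysomal), 0.26 (lines, sub-polysomal) and -0.17 (shift), had the widest effect. Under it 12 genes were higher in mock polysomes, 9 were lower in METTL7A1 polysomes with a median of 0.089, 1 was lower in METTL7A1 than mock polysomal RNA with a median of 0.092, sub-polysomal RNA had 13 higher and 2 lower between lines with a median of 0.18, and the median shift was -0.085. GC offsets gave medians of 0.19 (pools, mock), 0.16 (pools, METTL7A1, with 8 lower and 1 by the stricter rule) and -0.052 (shift). For the shift, DESeq2 called 1 gene higher and 1 lower, and the fit without a filter 1 lower.

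Leaving out 1 library at a time, the stricter rule called 1 to 2 genes between pools in mock cells (2 without sub-polysomal C, polysomal B or polysomal C). Between lines, 0 to 2 genes were higher (0 without METTL7A1 D) and 1 to 3 lower in polysomal RNA (1 without METTL7A1 E or F), and 3 to 7 were higher (3 without METTL7A1 D or E) and 7 to 10 lower in sub-polysomal RNA (7 without METTL7A1 F, against 11 with every library). For the shift it was 0 to 1 higher and 0 to 1 lower, the calls arising without mock polysomal A.

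Single genes short of the threshold changed sign, with small values: in polysomal RNA between lines Psmb7 (Actb 0.10, GC offsets 0.034, -0.068 to 0.054 without 1 library), Psmb9 (-0.024 to 0.28 without 1 library), Psme1 (GC offsets -0.017, -0.047 to 0.13 without 1 library) and Psme2 (Actb 0.066, -0.11 to 0.059 without 1 library), and in sub-polysomal RNA Psmb5 (Actb 0.17, -0.18 to 0.025 without 1 library) and Psme2 (Actb 0.083). The cause was not tested.

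A replicate block by library letter gave 19 higher and 4 lower (mock) and 23 higher and 5 lower (METTL7A1) between pools, with medians of 0.31 and 0.34, and 0 shift calls with a median of 0.075. It moved no count, though the calls of Psmd5 in mock and Psmg1 in METTL7A1 cells were lost. Correlations of same-letter deviations across pools ran from -0.29 to 0.11, so letters were not treated as pairs, and whether a letter marks a shared gradient is not given in the sources used here. Of 332 recomputed counts and medians 301 lay within 1.5 times the count or 1 SD of the median. Equal counts of 0 were among these, and the sign of a median was not part of the rule. Depth limits Psmb9 and Psme2b most, and 3 libraries per group leave tests of single ratios unable to pass 0.05.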
